A study of Mus musculus with 305 samples.

Results

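The opioid peptide precursor genes are Pdyn, Penk, Pomc and Pnoc, 4 of the 52636 genes in the count table, chosen by name through their Ensembl identifiers in GENCODE M21. They were followed in 51 male mice, all wild-type, by bulk sequencing of total RNA depleted of ribosomal RNA. Each mouse gave up to 6 brain regions, labelled dStri and NAc (dorsal striatum and nucleus accumbens in this field), PFC (prefrontal cortex), BLA (basolateral amygdala), vHPC (ventral hippocampus) and VTA (ventral tegmental area). BLA and VTA had 50 libraries each and the other regions 51 each, after 1 VTA library was left out. Mice taken at 24 h of withdrawal had self-administered heroin (H24, n = 11) or saline (S24, n = 8, with 7 in BLA) intravenously over 15 d. The other mice had the same 15 d of intake, then 30 d of withdrawal, a challenge injection and 2 h of a drug-seeking test. They form groups of 8 (7 for HH in VTA) named by the drug taken and then the drug given as challenge, HH, HS, SH and SS, where H is heroin and S saline. Nothing in the labels gives the age of the mice. The question of the series is what heroin intake and relapse do to transcripts across the reward circuitry.

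Each precursor is a larger protein that is cut inside secretory vesicles, mostly at pairs of basic residues, into short peptides. Penk encodes proenkephalin, the source of the enkephalins, which act mainly on delta and mu opioid receptors. Pdyn encodes prodynorphin, the source of the dynorphins, which act mainly on the kappa receptor. Pomc encodes proopiomelanocortin, from which beta-endorphin, corticotropin and the melanocyte-stimulating hormones are made, and in the adult it is expressed mostly in the pituitary and in the arcuate hypothalamus. Pnoc encodes prepronociceptin, whose product nociceptin binds the Oprl1 receptor. In the striatum, Penk is a known marker of indirect-pathway projection neurons, which carry Drd2, and Pdyn of direct-pathway neurons, which carry Drd1.

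The shared ancestry of the family shows in the coding sequence, where each precursor holds at least 1 copy of an opioid core that follows a pair of basic codons. Penk holds 7 copies over 804 coding bases, 6 of the Met-enkephalin form and 1 of the Leu-enkephalin form. Pdyn holds 3 copies over 744 coding bases, all of the Leu form. Pomc holds 1 copy over 705 coding bases, of the Met form, which is the start of beta-endorphin. Pnoc holds 1 related core over 561 coding bases, the start of nociceptin, whose first codon encodes phenylalanine. The cores of the other precursors all begin with a tyrosine codon. The lines that follow give 27 bases of GRCm38 (mm10) from the GENCODE M21 transcripts, on the coding strand, with the 15 bases of the core in capitals and the 6 bases on either side in lower case; they are shown because the peptides that separate the members start there.
Penk, first Met core, chr4:4134328-4134354, minus strand: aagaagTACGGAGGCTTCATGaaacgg
Penk, Leu core, chr4:4133935-4133961, minus strand: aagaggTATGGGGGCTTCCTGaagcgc
Pdyn, first core, chr2:129688232-129688258, minus strand: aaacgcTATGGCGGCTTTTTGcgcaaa
Pdyn, second core, chr2:129688124-129688150, minus strand: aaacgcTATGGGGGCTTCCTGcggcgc
Pomc, only core, chr12:3960367-3960393, plus strand: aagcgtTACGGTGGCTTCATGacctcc
Pnoc, only core, chr14:65404872-65404898, minus strand: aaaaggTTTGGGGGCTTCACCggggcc
The Leu core of Penk and the second core of Pdyn are the same 15 bases, and they differ only in the bases around them. The genes themselves are far apart. Pdyn (ENSMUSG00000027400) lies on chromosome 2 at 129686565 to 129699844, Penk (ENSMUSG00000045573) on chromosome 4 at 4133531 to 4138819, Pomc (ENSMUSG00000020660) on chromosome 12 at 3954951 to 3960642, and Pnoc (ENSMUSG00000045731) on chromosome 14 at 65400673 to 65425472. Penk overlaps A830012C17Rik, a non-coding gene on the opposite strand. The libraries were strand-specific, but the strand setting of the counting is not given in the sources used here, so a share of such reads in the Penk count cannot be told apart.

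Levels are given in CPM, the count of a gene per M (mega) counts of its library. The libraries used held between 19.31 and 61.35 M counts (median 31.42 M), so that 1 count in the smallest of these libraries is 0.0518 CPM. The VTA library of HH mouse 7, with 0.89 M counts, was left out. The striatal libraries carried their markers: the summed CPM of 8 striatal projection neuron markers had a median of 8922 in dStri and 4619 in NAc, and 738.7 in BLA, 264.5 in VTA and 197.2 in vHPC, with PFC between BLA and VTA. By rank correlation 16 more libraries stood apart, lying far from the others of their region or nearest to the profile of another region. Among them were vHPC SS mouse 28 and vHPC SH mouse 27, which lay nearest to the BLA profile. In bulk tissue, fewer cells of a type and less RNA per cell cannot be told apart.

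Penk was highest in the striatum. In saline mice (S24 and SS) its CPM ran from 915.8 to 1282 with a median of 1127 in dStri, and from 756.2 to 1078 with a median of 992.6 in NAc. BLA followed with a median of 230.8 and a range of 66.3 to 517.5, and VTA with a median of 37.3 and a range of 30.8 to 66.9. PFC (median 14.7, 11.2 to 39.3) and vHPC (median 10.1, 5.19 to 57.9) were lowest. The spread between saline libraries was as little as 8.73% of the mean in dStri and as much as 52% in BLA and 94.9% in vHPC.

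Pdyn had another order, with NAc above dStri. Its CPM in saline mice ran from 181.9 to 308.8 with a median of 231.9 in NAc, and from 50.7 to 142.1 with a median of 84.3 in dStri. BLA had a median of 46.2 and a range of 15.9 to 88.6. PFC had a median of 13.9 and a range of 4.35 to 19.4. VTA (median 1.62, 1.02 to 3.80) and vHPC (median 1.62, 0.309 to 12.7) were lowest, and the vHPC libraries spread over a 41-fold range where those of VTA spread over 3.71-fold.

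Pnoc was lowest in the striatum, and highest in VTA. In saline mice it ran from 5.07 to 22.6 CPM with a median of 14.4 in VTA, from 4.60 to 18.1 with a median of 6.68 in vHPC, from 4.00 to 14.05 with a median of 6.34 in BLA and from 3.33 to 5.21 with a median of 4.26 in PFC. NAc had a median of 1.58 (0.663 to 4.29) and dStri a median of 0.44 (0.136 to 5.76), which is a median of 15 reads per dStri library.

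Pomc stood near 1 CPM in every region. Its median in saline mice was between 0.95 in PFC and 1.63 in VTA, or 24.5 to 62 reads per library. NAc (0.521 to 2.02), dStri (0.43 to 2.22) and PFC (0.517 to 1.96) had narrow ranges. VTA (0.649 to 36.8), vHPC (0.161 to 15.7) and BLA (0.269 to 6.01) each had a few libraries far above the rest.

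**Figure D1:**
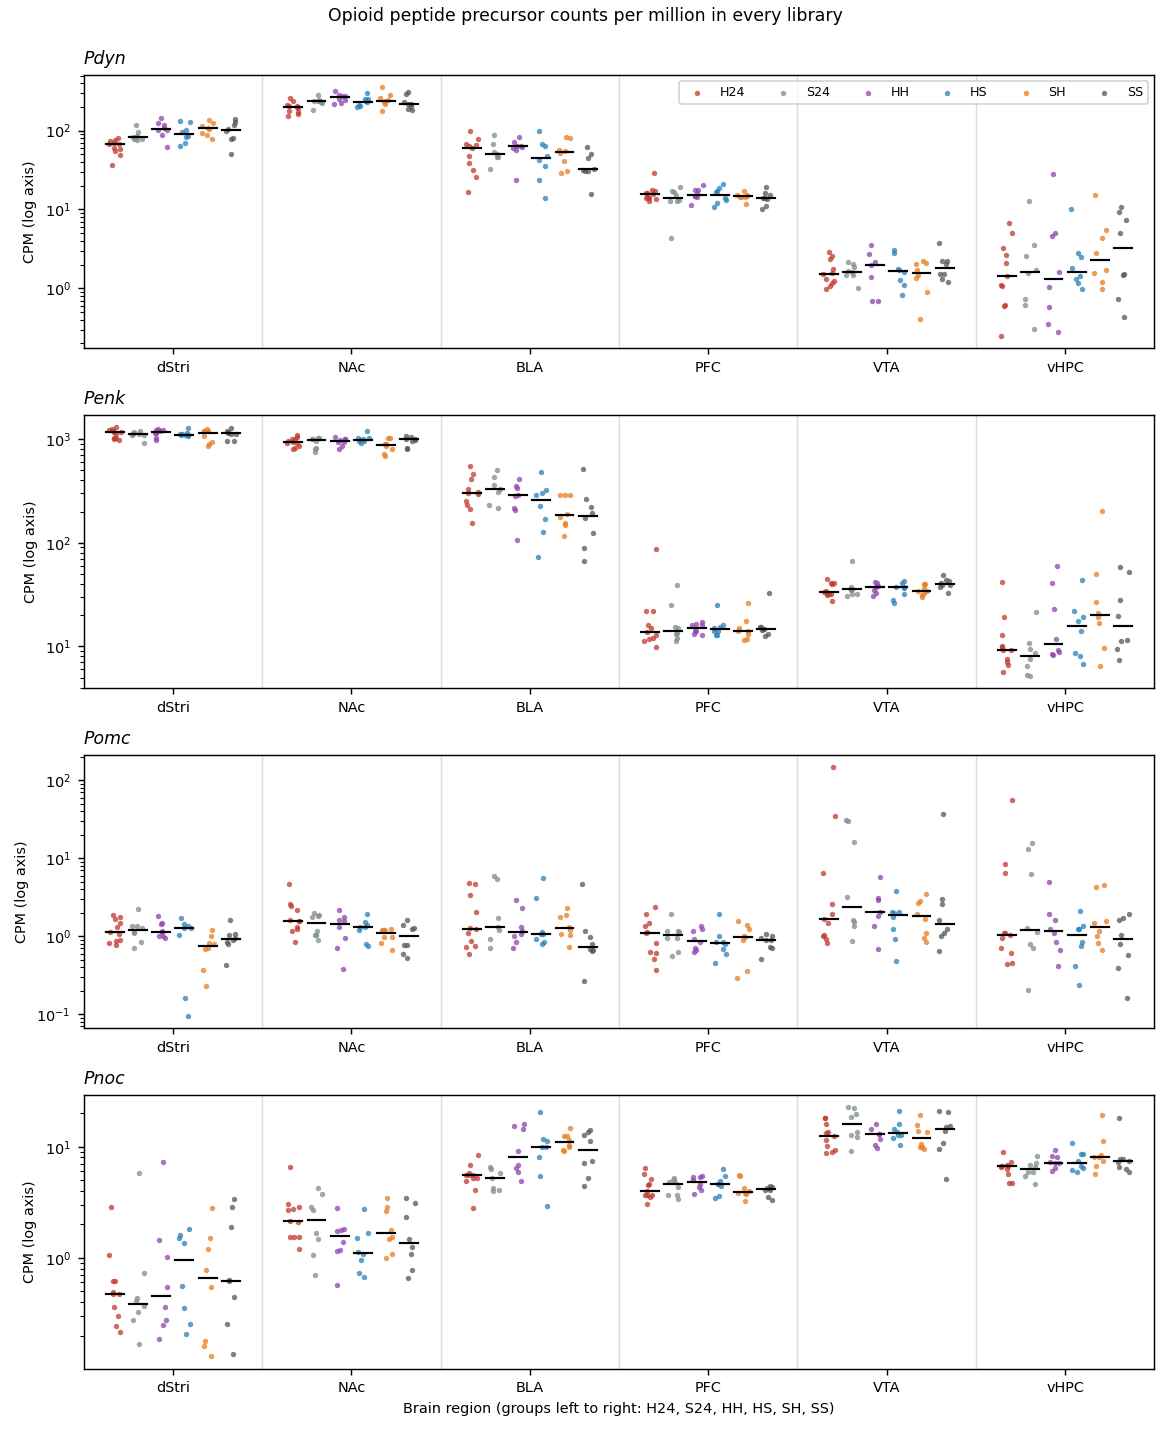
CPM of the 4 precursors in every library (points; log axis) by region and group, with the group median as a black bar; groups run H24, S24, HH, HS, SH, SS from left to right within each region. Penk and Pdyn sit highest in dStri and NAc, Pnoc sits highest in VTA, and Pomc lies near 1 CPM apart from some libraries of VTA, vHPC and BLA, up to 147.8 CPM.

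Per kilobase of annotated exon, which allows levels of different genes to be set side by side, Penk led in every region by the saline median. In dStri it stood at 689.5 CPM per kb, against 29.2 for Pdyn, 0.809 for Pomc and 0.204 for Pnoc. In VTA Penk stood at 22.8 CPM per kb, Pnoc at 6.67, Pomc at 1.24 and Pdyn at 0.561. In PFC the ratio of Penk to the next member was the smallest of the 6 regions, with Penk at 8.99, Pdyn at 4.80, Pnoc at 1.97 and Pomc at 0.72 CPM per kb. The ratio of Penk to Pdyn per kb within a library differed widely by region. Its median over saline libraries was 22.7 in dStri (11.9 to 33.2), 7.58 in NAc (5.72 to 8.64), 10.9 in BLA (4.35 to 20.4), 2.03 in PFC (1.19 to 4.56), 38.7 in VTA (20.1 to 72) and 10.25 in vHPC (0.743 to 46.1). The dStri and NAc ratios did not overlap.

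Region pairs were tested in the saline mice with edgeR's quasi-likelihood test, with Benjamini-Hochberg adjustment over all genes of the pair, and called at an adjusted p under 0.05. Over the 15 pairs, 53.3% of all gene tests were called, so a call between regions is common among genes at large. Of the 60 member tests 50 were called: all 15 for Pdyn, 14 for Pnoc, 13 for Penk and 8 for Pomc. Each mouse gave several regions; with the mouse as a replicate block Pomc had 5 calls and the other members had as many as before, 47 in all.

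Among neighbours in the order of the levels, Pdyn in NAc stood above dStri by a log2 difference of 1.28 ± 0.226 (SE; adjusted p = 2.73e-06), dStri above BLA by 1.00 ± 0.231 (adjusted p = 0.000113), BLA above PFC by 1.74 ± 0.237 (adjusted p = 1.75e-09) and PFC above VTA by 2.99 ± 0.271 (adjusted p = 7.75e-18). VTA and vHPC shared a median of 1.62 CPM, while the fitted difference of VTA minus vHPC was -1.14 ± 0.277 (adjusted p = 0.000199). The vHPC libraries reached 12.7 CPM and those of VTA 3.80 CPM. Penk in dStri and NAc was not separated (dStri minus NAc 0.27 ± 0.21, adjusted p = 0.394), nor was PFC from vHPC (0.02 ± 0.221, adjusted p = 0.961). Penk in NAc stood above BLA by 1.75 ± 0.222 (adjusted p = 5.16e-11), BLA above VTA by 2.86 ± 0.229 (adjusted p = 1.17e-20) and VTA above PFC by 1.13 ± 0.219 (adjusted p = 3.54e-06).

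For Pnoc, VTA stood above vHPC by a log2 difference of 0.96 ± 0.263 (adjusted p = 0.0009), BLA above PFC by 0.86 ± 0.273 (adjusted p = 0.00903), PFC above NAc by 1.06 ± 0.279 (adjusted p = 0.000709) and NAc above dStri by 0.81 ± 0.298 (adjusted p = 0.0336). The vHPC and BLA levels were not separated (-0.02 ± 0.267, adjusted p = 0.972). For Pomc, VTA stood above NAc by 2.69 ± 0.465 (adjusted p = 2.73e-07), and by 1.63 ± 0.378 with the replicate block. Without the VTA library of SS mouse 28, NAc minus VTA was -1.99 ± 0.437 (edgeR adjusted p = 3.61e-05). The saline medians were closer, at 1.63 CPM in VTA and 1.22 CPM in NAc, where the means were 8.41 and 1.24 CPM. The S24 libraries of VTA also reached 31.5 CPM, with a median of 2.395. The differences of NAc minus vHPC (-1.14 ± 0.458, adjusted p = 0.028) and vHPC minus dStri (1.24 ± 0.461, adjusted p = 0.016) were called without the block and not with it, where they were -0.37 ± 0.376 (adjusted p = 0.413) and 0.51 ± 0.376 (adjusted p = 0.237).

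Heroin intake or challenge gave no call for any member. Each of 9 contrasts had 24 tests by edgeR, 4 genes in 6 regions, with 0 called in all, a smallest adjusted p of 0.397 and 13 with an unadjusted p under 0.05. DESeq2 called none of them either. The share of all genes called was 0.0% for H24 minus S24, HH minus SH, HH minus SS, HS minus SS, the history mean (HS and HH minus SS and SH) and the interaction (HH minus SH, less HS minus SS). It was 0.0034% for SH minus SS, 0.00424% for HH minus HS and 0.0416% for the challenge mean (SH and HH minus SS and HS). At an unadjusted p under 0.05 the share of all genes was 3.25% to 4.99% by contrast. At that level 5475 gene tests over the 6 regions passed for H24 minus S24. DESeq2 called 44 gene tests for H24 minus S24, 12 for HH minus SS, 2 for HH minus SH, 0 for HS minus SS, 2 for the history mean, 1 for the interaction, 21 for SH minus SS, 19 for HH minus HS and 0.1% of genes for the challenge mean. Each library of a group and region is a separate mouse. The 30 d groups were spread unevenly over 2 sets of sample codes, with 6 HH, 6 HS, 4 SH and 3 SS mice in set 1, and with the code set as a covariate no member was called either.

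At 24 h of heroin withdrawal, the smallest p-values belonged to Pdyn in the striatum. In dStri Pdyn had a median of 67 CPM in H24 mice (36.8 to 81.8, n = 11) and 83.2 CPM in S24 mice (76.9 to 117.4, n = 8). All 11 H24 libraries lay below the S24 mean and 10 of 11 lay below the lowest S24 library, with 1 H24 library inside the S24 range. How many genes at large part as far between these groups was not counted. The means were 63.3 ± 13.1 CPM in H24 and 87.5 ± 13.6 CPM in S24 mice (SD). The log2 difference was -0.48 ± 0.117, with an unadjusted p of 0.000397 by edgeR. It did not pass over all genes tested (adjusted p = 0.674, and 0.0967 to 0.762 over the alternatives).

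In NAc Pdyn had a median of 198.4 CPM in H24 mice (154.2 to 257.9, n = 11) and 236.5 CPM in S24 mice (181.9 to 286.5, n = 8). The ranges overlapped, and 9 of 11 H24 libraries lay below the S24 mean. The log2 difference was -0.27 ± 0.086, with an unadjusted p of 0.004 by edgeR, and did not pass (adjusted p = 0.397, and 0.202 to 0.409 over the alternatives). The difference in dStri was -0.47 or -0.48 under 4 of the 5 alternatives and -0.43 with the striatal marker score as a covariate; in NAc it was -0.27 to -0.30.

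The direct-pathway markers gave other values. Drd1, the dopamine receptor of direct-pathway neurons, differed by 0.00 ± 0.0545 in dStri and 0.06 ± 0.0836 in NAc (edgeR adjusted p = 1.00 and 0.905). Tac1, the substance P precursor of the same neurons, differed by 0.01 ± 0.0743 and 0.08 ± 0.118. All 5 direct-pathway markers had a positive log2 difference in dStri and 3 of 5 in NAc, and none was called; the largest was Eya1 in dStri, at 0.29 ± 0.102 (adjusted p = 0.928). Their summed level in dStri ran from 839 to 1099 CPM in H24 mice and from 888 to 1076 CPM in S24 mice. Penk differed by 0.03 ± 0.0701 in dStri and -0.00 ± 0.077 in NAc.

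Some marker sums of other tissue differed between the same groups, by median or by the highest library. The summed CPM of 3 blood markers had a median of 202.5 in H24 (91.5 to 401.7) and 131.1 in S24 (122.2 to 165.2) in dStri. In NAc the highest library had 244.7 in H24 and 153.1 in S24. The summed CPM of 5 excitatory neuron markers had a median of 572.1 in H24 (450 to 801.4) and 790.1 in S24 mice (695.9 to 940.6) in NAc. What part these had in the Pdyn difference was not tested.

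**Figure D2:**
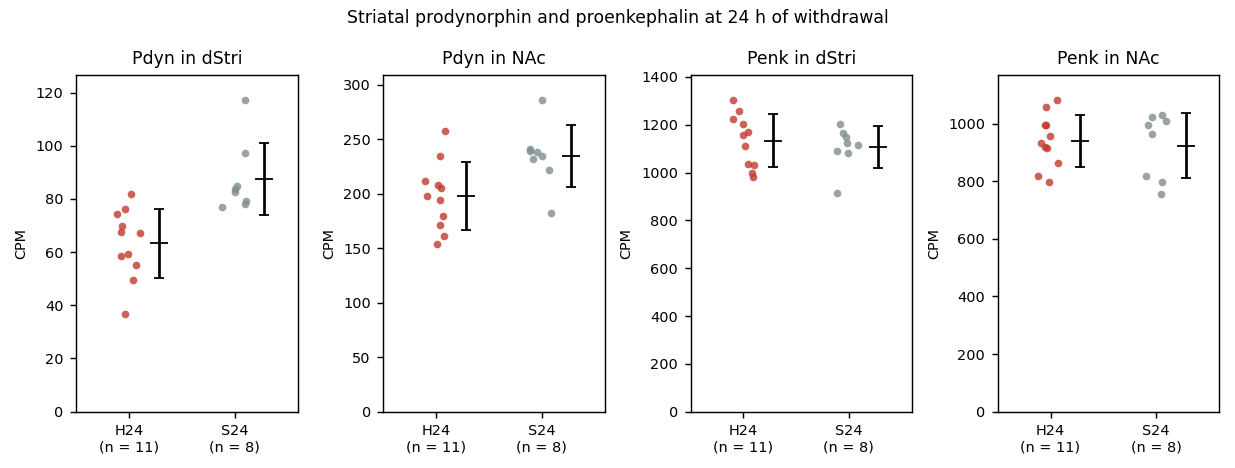
CPM of Pdyn and Penk in dStri and NAc of H24 (left) and S24 mice (right); points are libraries and the bar beside them is the mean ± SD, with axes from 0. For Pdyn in dStri 10 of 11 H24 libraries lie below the lowest S24 library, in NAc the ranges overlap, and for Penk the groups overlap in both regions. The share of all genes that part as far was not counted.

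The remaining 22 member tests at 24 h had log2 differences between -0.59 ± 0.587 for Pnoc in dStri and 0.77 ± 0.993 for Pomc in VTA. Each of these rested on 1 library. Without the dStri library of S24 mouse 49 (5.76 CPM of Pnoc) the Pnoc difference was 0.82 ± 0.472, and without the VTA library of H24 mouse 43 (147.8 CPM of Pomc) the Pomc difference was -1.01 ± 0.807 (edgeR adjusted p = 0.998 for both). For Penk the largest was 0.43 ± 0.361 in vHPC, and 3 of 6 regions had each sign. For Pnoc the smallest adjusted p was 0.963 by edgeR. In VTA Pnoc had a median of 12.6 CPM in H24 mice (8.80 to 18.2) and 16.1 CPM in S24 mice (9.14 to 22.6), a log2 difference of -0.34 ± 0.174 (adjusted p = 0.975). Outside the striatum Pdyn differed by log2 values of -0.38 in vHPC to 0.24 in PFC, none at an unadjusted p under 0.05.

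After 30 d of withdrawal and the challenge, Pdyn in BLA was highest by median in the HH group, without passing. Its median was 63.6 CPM in HH (23.5 to 83.5), 44.8 in HS (13.8 to 98.1), 53.5 in SH (28.6 to 84.3) and 32.2 in SS mice (15.9 to 61.5). The 4 ranges overlapped, and 7 of 8 HH libraries lay above the SS mean. The log2 difference of HH minus SS was 0.70 ± 0.293 (edgeR adjusted p = 1.00) and the challenge mean was 0.42 ± 0.207 (adjusted p = 1.00). With the striatal marker score as a covariate HH minus SS was 0.40 ± 0.247. Marker sums of neighbouring nuclei were also higher by median in HH, and their part was not tested beyond that covariate: striatal markers had a median of 726.6 CPM in HH and 440.1 in SS, and 4 central amygdala markers (Prkcd, Tac2, Crh and Nts) 93.4 CPM in HH and 63.4 in SS.

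No difference of striatal Pdyn passed at 30 d. In dStri its median was 105.6 CPM in HH (62.5 to 144.3), 90.3 in HS (64.8 to 131.5), 106.8 in SH (78.6 to 137.9) and 102.6 in SS mice (50.7 to 142.1). In NAc its mean was 262.7 ± 33.7 CPM in HH, 236.9 ± 31.5 in HS, 251.2 ± 52.5 in SH and 230.2 ± 46.4 in SS mice (SD, n = 8 each). The groups overlapped in both regions. HH minus HS was positive for Pdyn in all 6 regions, with log2 values of 0.06 to 0.91 and a smallest adjusted p of 0.962 (edgeR). HH minus SH was likewise positive, with 0.02 to 0.35 and a smallest adjusted p of 0.932. Both contrasts use the same HH libraries, and the regions come from the same mice. HH minus SS was positive in 5 regions and negative in 1, SH minus SS in 4 and 2, and HS minus SS in 3 and 3. How many genes at large share a sign over the regions was not counted.

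Penk in VTA was lower in SH and in HS than in SS mice, without passing. Its median was 37.1 CPM in HH (30.5 to 41.9, n = 7), 37.2 in HS (26 to 42.6), 34.4 in SH (30 to 40.3) and 40.1 in SS mice (33 to 48.4). SH minus SS was -0.24 ± 0.0908 (edgeR adjusted p = 0.90), HS minus SS -0.20 ± 0.0908 (adjusted p = 1.00) and the interaction 0.30 ± 0.131 (adjusted p = 0.854), or 0.53 with the VTA library of HH mouse 7 kept. The groups overlapped, with 7 of 8 SH and 6 of 8 HS libraries below the SS mean. In NAc Penk had a median of 869.2 CPM in SH (681 to 1035) and 993.2 CPM in SS mice (798.3 to 1078), a log2 difference of -0.16 ± 0.0807 (adjusted p = 1.00). These contrasts share the SS libraries.

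Pomc in VTA gave the widest fitted differences, and 1 SS library stood far above the rest. In VTA its median was 2.03 CPM in HH (0.692 to 5.84), 1.87 in HS (0.483 to 3.80), 1.80 in SH (0.842 to 3.501) and 1.43 in SS mice (0.649 to 36.8). Mouse 28 gave the 36.8 CPM, and the other SS libraries reached 3.04 CPM at most. The fitted log2 differences were -1.72 ± 0.619 for HS minus SS (edgeR adjusted p = 1.00), -1.65 ± 0.617 for SH minus SS (adjusted p = 0.90) and 2.17 ± 0.883 for the interaction (adjusted p = 0.854), against the order of the medians. DESeq2 gave 0.13 ± 0.363 for HS minus SS and 0.20 ± 0.362 for SH minus SS. Without the library of mouse 28, an alternative chosen after seeing the data, edgeR gave 0.14 ± 0.398 for HS minus SS, 0.22 ± 0.397 for SH minus SS and 0.30 ± 0.558 for the interaction (adjusted p = 1.00, 0.966 and 0.96).

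Near 1 CPM, Pomc in dStri had a median of 1.15 CPM in HH (0.958 to 1.85) and 0.755 CPM in SH mice (0.231 to 1.22), a log2 difference of 0.78 ± 0.358 (edgeR adjusted p = 0.932). In vHPC its median was 1.18 CPM in HH (0.422 to 4.93), 1.33 in SH (0.67 to 4.61), 1.05 in HS (0.236 to 2.14) and 0.915 in SS mice (0.161 to 1.95), with a challenge mean of 0.75 ± 0.348 (adjusted p = 0.999). Pnoc had no 30 d test at an unadjusted p under 0.05. Its log2 differences there ran from -0.48 for SH minus SS to 1.04 for the interaction.

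**Figure D3:**
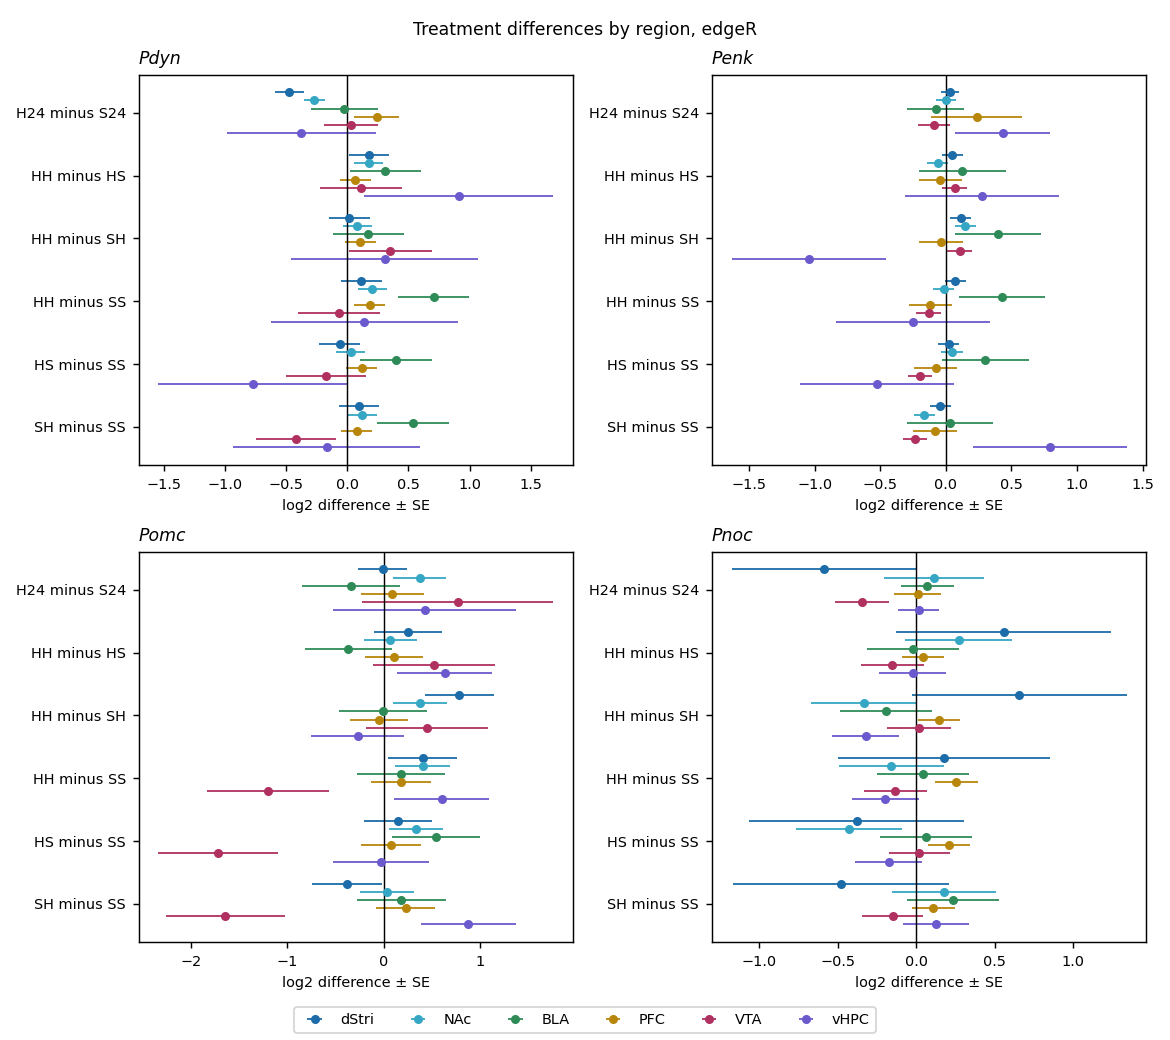
Log2 differences (points) with their standard errors (bars) for each member, from edgeR, by contrast (rows) and region (colours). Pdyn lies left of 0 in dStri and NAc for H24 minus S24 (-0.48 and -0.27), Penk lies close to 0 in dStri and NAc throughout, and bars are wide for Pomc in VTA, Pnoc in dStri and Pdyn and Penk in vHPC.

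Several members varied more between mice of a group than most genes of like level. With edgeR's gene-wise dispersion ranked among the genes nearest in level, Pdyn in BLA lay at the 99.4th percentile at 24 h and the 99th at 30 d, and Penk in BLA at the 99.2nd at both times. In dStri Pdyn lay at the 98.8th and 98.6th percentiles and Penk at the 71.9th and 81st. Pomc in VTA lay at the 99.8th and 99.2nd. Pnoc in PFC lay at the 32.9th and 9.18th. The biological coefficient of variation behind these ranks was 0.39 and 0.401 for Pdyn in BLA, and 0.111 and 0.118 for Penk in dStri.

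In BLA the libraries differed together in Penk and in markers of striatal projection neurons. Across 50 BLA libraries, after the mean of each group was taken off, log2 Penk and the mean log2 CPM of the 8 striatal markers had Pearson's r = 0.94 and Spearman's rho = 0.94 (permutation test, adjusted p = 0.000148 for both, over 384 relations of members with marker scores). Without the 2 libraries farthest on the marker axis r was 0.94, within the 24 h mice 0.95, within the 30 d mice 0.94, and without the libraries standing apart 0.94. The summed striatal markers of BLA ran from 316 to 1961 CPM, and the highest value belonged to SS mouse 6, with 517.5 CPM of Penk. That library is 1 of the 16 standing apart. In vHPC the same relation had r = 0.92 and rho = 0.91 (n = 51, adjusted p = 0.000148 for both, permutation test), 0.90 without the 2 farthest libraries and 0.92 within either time.

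Single PFC and vHPC libraries were far above the rest in both. In vHPC SH mouse 27 had 203 CPM of Penk, 18.7 times the vHPC median of 10.8, with the highest striatal marker sum of the region, 712.6 CPM. In PFC H24 mouse 43 had 86.9 CPM of Penk, 6 times the PFC median of 14.5, and 28.9 CPM of Pdyn, again with the highest striatal marker sum of its region, 637 CPM. Over PFC the relation of Penk with the striatal score had r = 0.85 and rho = 0.57 (adjusted p = 0.000148 and 0.000265, permutation test, n = 51), and r = 0.74 without the 2 farthest libraries.

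Pdyn in BLA followed the central amygdala markers as well as the striatal ones. With the central amygdala score it had r = 0.68 and rho = 0.70, and with the striatal score r = 0.59 and rho = 0.59 (n = 50, adjusted p = 0.000148 for each, permutation test). Within the 24 h mice these were 0.91 and 0.43, and within the 30 d mice 0.52 and 0.67. Pdyn and Penk varied together between BLA libraries (r = 0.74, rho = 0.73, adjusted p = 0.00036 for both over 36 pairs of members, permutation test; 0.63 at 24 h and 0.80 at 30 d). They did so in vHPC (r = 0.60 and rho = 0.56 over both, adjusted p = 0.00054 and 0.00108; 0.16 at 24 h, 0.76 at 30 d), and more loosely in NAc (r = 0.45, rho = 0.43, adjusted p = 0.0107 and 0.0223). The difference between the times was not tested. Of the 36 pairs, 4 passed by both coefficients, and the other was Pdyn with Pnoc in NAc (r = -0.44, rho = -0.42, adjusted p = 0.0124 and 0.0238).

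Within the striatum itself, Penk followed indirect-pathway markers. In dStri it had r = 0.63 and rho = 0.55 with that score, and in NAc r = 0.60 and rho = 0.58 (n = 51, adjusted p = 0.000148 for each, permutation test). Pdyn in dStri had r = -0.31 and rho = -0.37 with the direct-pathway score (adjusted p = 0.114 and 0.0402). Pnoc in dStri fell as the striatal score rose (r = -0.60, rho = -0.63) and rose with the central amygdala score (r = 0.76, rho = 0.68; adjusted p = 0.000148 for each). The striatal relation was -0.25 within the 24 h mice and -0.72 within the 30 d mice. In all, 59 of 384 relations passed by both coefficients, 45 of them positive.

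Pomc followed the mean level of pituitary markers. With the mean log2 CPM of Gh, Prl, Cga, Tshb, Lhb and Pou1f1, Pomc had r = 0.86 and rho = 0.81 in VTA (n = 50), r = 0.83 and rho = 0.73 in BLA (n = 50) and r = 0.79 and rho = 0.77 in vHPC (n = 51; adjusted p = 0.000148 for each, permutation test). In VTA r was 0.82 without the 2 farthest libraries, 0.93 within the 24 h mice and 0.65 within the 30 d mice. H24 mouse 43 had the highest Pomc of VTA, 147.8 CPM or 82 times the region median, and of vHPC, 55.6 CPM. Its vHPC library also held 185.8 CPM of Gh (growth hormone), where the vHPC median was 0.36, and its VTA library 56 CPM of Prl (prolactin), where the VTA median was 0.0697. In VTA Tshb was at 3.29 CPM in that library against a median of 2.81, and Lhb at 0.305 CPM against 0.0385. In the vHPC library of H24 mouse 43 Tshb was at 1.405 CPM against a median of 1.385. Lhb was lower there, at 0.0803 CPM against a median of 0.234. Gh was at 0 in 13 of the 50 VTA libraries, Prl in 20, Lhb in 15, Cga in 38 and Pou1f1 in 34.

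The VTA library of SS mouse 28, second in Pomc with 36.8 CPM, held other hormone genes. It had 18.9 CPM of Gh and 2.55 CPM of Prl, and its 6.44 CPM of Pmch, the melanin-concentrating hormone precursor of the hypothalamus, was the highest of the region, where the median was 0.168. It also held 1.52 CPM of Hcrt, the orexin precursor, against a median of 0.0668. The summed hypothalamus markers were 9.32 CPM there and 1.57 CPM in H24 mouse 43, against a VTA median of 1.51. The highest hypothalamus sum of VTA, 15.0 CPM, belonged to SS mouse 22, with 2.58 CPM of Pomc. Agrp marks another neuron type of the arcuate nucleus. It was at 0.516 CPM in SS mouse 28 and 0.697 CPM in H24 mouse 43, near the VTA median of 0.67. Ghrh was at 0.304 CPM in SS mouse 28, under the VTA median of 0.377. Avp was at 0.425 CPM and Oxt at 0.122 CPM there, against medians of 0. The same library had the highest central amygdala marker sum of VTA, 43 CPM against a median of 16. Its excitatory neuron marker sum was 277.4 CPM against a median of 56.6. What part pituitary, hypothalamic or other tissue had in the Pomc counts was not tested.

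The same mice had high Pomc in several regions. Libraries over 5 times the median of their region numbered 6 in VTA, of which 5 were of the 24 h mice and 1 of the 30 d mice, 6 in vHPC, all of the 24 h mice, and 1 in BLA. After the group means were taken off, Pomc in BLA and VTA of the same mouse had r = 0.69 and rho = 0.68 (n = 49), in BLA and vHPC r = 0.66 and rho = 0.63 (n = 50), and in VTA and vHPC r = 0.76 and rho = 0.66 (n = 50; adjusted p = 2e-04 for each over 60 relations, permutation test). Within the 30 d mice r was 0.45, 0.40 and 0.31, and within the 24 h mice 0.87, 0.85 and 0.93. These 3 were the only same-mouse relations of any member that passed by both coefficients.

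**Figure D4:**
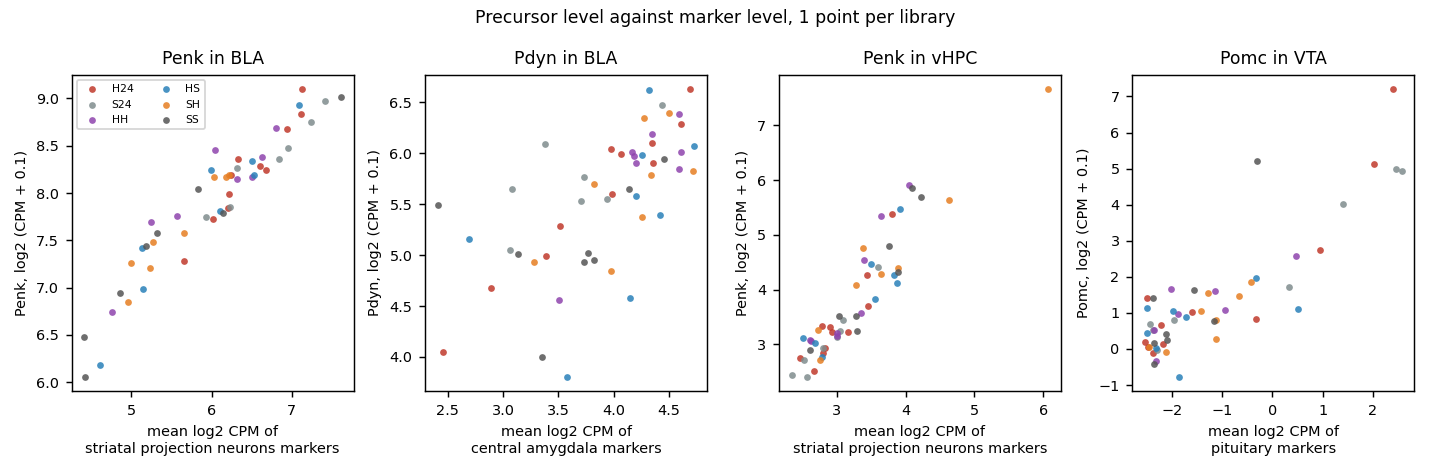
Log2 CPM of a member against the mean log2 CPM of a marker list in the same library, coloured by group. Penk rises with striatal projection neuron markers in BLA and vHPC (group-centred r = 0.94 and 0.92), Pdyn with central amygdala markers in BLA (0.68) and Pomc with pituitary markers in VTA (0.86).

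The genes whose log2 CPM over all libraries used was most like each member are given with the 6 regions pooled, so that level by region enters them. For Pdyn these were Cpne5 (r = 0.94), Drd1 (0.939), Rbm24, Dclk3 and Slc4a11 (0.932). For Penk they were Lhx8 and Adora2a (both 0.963), Isl1, Kcna5 and Pde7b (0.959). For Pnoc they were Disp2 (0.928), Camk2n2, Oprl1 (0.913), Slc25a18 and Mta3; Oprl1 is the gene of the nociceptin receptor. For Pomc they were Prl (0.753) and Gh (0.711), then Cd274 at 0.39, Pomgnt2 and Asrgl1. Within the region where each member was highest, after group means were taken off, Penk in dStri was most like Drd2 (0.849), then St8sia3, Zfp462, Dpp6 and Gnal. Pdyn in NAc was most like Zfp706 (0.699), Cacna2d3 (0.698), Ap1s1, Kcnab1 and Taf11. Pomc in VTA was most like Prl (0.855), Gh (0.826), Chgb, Las1l and Rpl31-ps8, and the genes most like Pnoc in VTA included Otp (0.655), Lypd6, Slc6a5 and Mc4r. Libraries share depth and tissue composition, so these values describe likeness alone.

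Of the pathway around the peptides, no gene was called in any contrast. The 6 receptor genes (Oprm1, Oprd1, Oprk1, Oprl1, Mc3r and Mc4r) gave 34 tests per contrast, the 7 processing genes 42, the 10 peptidase genes 60 and the 7 dense core granule genes 42, with 0 called in either direction by edgeR. At 24 h the receptors had 11 positive and 23 negative differences in H24 over the 6 regions. The share of negative differences among all genes is not given here. In dStri the receptor median was -0.22, where that of all genes was -0.01. This region is singled out because -0.22 was the lowest median of any list, region and contrast. It rests on at most 6 genes, of which Mc3r and Mc4r had the lowest levels in dStri. There Oprk1, the kappa receptor on which dynorphins act, differed by -0.24 ± 0.0825 (adjusted p = 0.926). It is named for its small unadjusted p within the list, and its differences in NAc and elsewhere are not given here. Its relation to Pdyn was not tested. In vHPC Oprl1 differed by -0.16 ± 0.0523 (adjusted p = 1.00). Ace, a peptidase that also cleaves enkephalins, differed by 1.90 ± 0.61 in BLA (adjusted p = 0.641) and 0.32 ± 0.105 in dStri (adjusted p = 0.851). Scg5, the chaperone of the convertase Pcsk2, differed by 0.10 ± 0.0554 in dStri and 0.09 ± 0.0518 in NAc, and Cadps2, a vesicle priming factor, and Scg2, a granule protein, by -0.49 ± 0.243 and -0.18 ± 0.092 in dStri (adjusted p = 0.696 for Scg5 in NAc and 1.00 for the other 3).

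For a first heroin challenge (SH minus SS), Pcsk1, a prohormone convertase that cuts at pairs of basic residues, differed by 0.47 ± 0.142 in dStri (edgeR adjusted p = 0.503) and 0.47 ± 0.197 in NAc (adjusted p = 1.00), and Cadps2 in dStri by 0.99 ± 0.324 (adjusted p = 0.562). For the challenge mean, Vgf, an activity-regulated granule protein, differed by 0.21 ± 0.0675 in PFC (adjusted p = 0.284) and Pcsk1 by 0.30 ± 0.1 in dStri (adjusted p = 0.506). For the history mean, Pcsk1n, which inhibits Pcsk1, differed by 0.28 ± 0.0745 in dStri (adjusted p = 0.609). Over all contrasts the median of a pathway list in a region lay between -0.22 and 0.19, where that of all genes lay between -0.01 and 0.02.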

How the data were processed

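Bulk RNA-seq counts from 6 brain regions of 51 male mice were analysed. Per the labels' protocols, total RNA was extracted with Qiagen RNEasy Micro and made into strand-specific, rRNA-depleted libraries (TruSeq Gold). Per the submitters' processing notes, reads were handled with HISAT2, HTSeq, SAMtools and FastQC on build mm10; versions and the counting's strand setting are not given in the sources used here. The authors deposited raw counts per Ensembl gene. Identifiers were matched to GENCODE M21 symbols (52403 of 52636 genes).

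CPM is the count per M (mega) counts of the library total. Groups came from the labels. Contrasts were fitted per region with edgeR 4.0.16 (R 4.3.3, TMM, filterByExpr with a minimum count of 10, quasi-likelihood test, Benjamini-Hochberg over all genes per region and contrast, threshold 0.05). The 24 h and 30 d groups were fitted apart, since time, code set, challenge and drug-seeking test cannot be told apart between them. Region pairs used S24 and SS mice with group as covariate. Alternatives were DESeq2 1.42.0 and its size factors, no low-count filter, omission of libraries standing apart, a striatal marker score and the code set. Others were the VTA library under 5 M counts, all 6 groups and the mouse as a replicate block. Omission of 1 library with extreme Pomc or Pnoc was chosen after seeing the data. Libraries standing apart lay over 4 scaled MADs below their region in median rank correlation, or nearest to the profile of another region. Same-numbered libraries are from the same animal per the labels; 3 of 60 same-mouse relations between regions passed, all of Pomc.

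Correlations used log2(CPM + 0.1) less the group mean, with 100000 permutations in Python 3.11.15 and scipy 1.17.1, two-sided. Scripts were tested on simulated data. No libraries of a group were duplicates: chi-square over its degrees of freedom was at least 6.65 in 1156 pairs. Depth was 19.31 to 61.35 M counts, and intervals from counts would cover counting error only. The members and lists were chosen with earlier results of these data known. Differences of members are given in full where called or with an unadjusted p under 0.05; pathway genes named are among the 2 with the smallest p per list and contrast. Of 107 other list genes 105 were found; Gpr52 and Kiss1 are not used here. A gene among those most like Pnoc in VTA is not reported here.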

Additional observations from a re-analysis of the deposited data

Results flagged for a closer look

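In 12 of 120 groups of 7 or 8 libraries a single library lay far from the others of its group, by Dixon's criterion. That criterion flags about 1 group in 20 by chance. It was used for groups of up to 10 libraries, so the H24 groups, of 11 libraries each, were not screened. For Pdyn, the lowest HH library of BLA (mouse 25) had 23.5 CPM, where the others had 57.4 to 83.5. The lowest S24 library of PFC (mouse 50, a library standing apart) had 4.35 CPM, where the others had 12.7 to 19.3, and the highest HS library of vHPC (mouse 23) had 10.15 CPM, where the others had 0.969 to 2.85.

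For Penk, HS mouse 11 was highest in NAc with 1187 CPM (others 912.8 to 1029) and in PFC with 24.9 CPM (others 13 to 15.9). SS mouse 31 was highest in PFC with 32.6 CPM (others 12.7 to 15.4), and S24 mouse 41 in VTA with 66.9 CPM (others 30.8 to 37.4). In dStri HS mouse 20 was highest with 1267 CPM (others 1065 to 1155) and S24 mouse 35 lowest with 915.8 CPM (others 1083 to 1204).

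For Pomc, SS mouse 28 had 36.8 CPM in VTA, where the others had 0.649 to 3.04. For Pnoc, S24 mouse 49 had 5.76 CPM in dStri (others 0.168 to 0.728) and SS mouse 26 had 18.1 CPM in vHPC (others 5.91 to 7.78).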

How the results depend on the processing

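No member was called in any treatment contrast under any alternative run. Of 87 alternative values for the 13 differences named, 85 kept their direction and side of the threshold; Pomc in VTA reversed with DESeq2, to 0.13 for HS minus SS and 0.20 for SH minus SS. Of those that kept it, some moved by over 1.5 times: Pomc in VTA with the striatal score (-1.06 for HS minus SS, -0.63 for SH minus SS, 1.38 for the interaction) and with DESeq2 (interaction 0.32), Pdyn in BLA with the striatal score (0.40 for HH minus SS), and Penk in VTA with the library of HH mouse 7 (interaction 0.53). Single libraries left out after seeing the data also reversed values: without the library of SS mouse 28 Pomc in VTA was 0.14 for HS minus SS and 0.22 for SH minus SS, without that of H24 mouse 43 Pomc in VTA was -1.01 for H24 minus S24, and without that of S24 mouse 49 Pnoc in dStri was 0.82. Of 120 values for neighbouring regions 2 lost a call, 3 gained one and 3 reversed. With the mouse as a replicate block Pomc lost NAc minus vHPC (-0.37) and dStri minus vHPC (-0.51) among neighbours, and no call of another member changed. With all 6 groups Penk NAc minus dStri (-0.30), Pomc BLA minus dStri (0.67) and Pomc BLA minus PFC (0.82) were called, and Penk PFC minus vHPC turned to -0.26. Without the low-count filter the last was -0.01 and Pnoc BLA minus vHPC -0.00. The share of all genes called moved more. With DESeq2 it was 0.0397% for H24 minus S24 (44 genes), 0.0178% for SH minus SS (21), 0.0102% for HH minus SS (12), 0.0017% for HH minus SH and for the history mean (2 each), 0.0161% for HH minus HS (19), 0.000849% for the interaction (1) and 0.1% for the challenge mean. Without the filter it was 0.00139% for H24 minus S24 (3 genes), 0.0031% for SH minus SS (7), 0.000885% for HH minus SS (2), and 0.00398% for HH minus HS and for the history mean (9 each). Without libraries standing apart it was 0.0334% for H24 minus S24 (37 genes), 0.00672% for SH minus SS (8) and 0.0647% for the challenge mean (77). The cause was not tested. Other single replicates were not left out in turn. Depth limits Pomc everywhere, Pnoc in dStri and NAc and Pdyn in VTA and vHPC, at saline medians of 15 to 65.5 reads.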

Other observations

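Pnoc in BLA was lower by median in the 24 h mice than in the 30 d mice. Its median was 5.55 CPM in H24 (2.84 to 8.50) and 5.24 in S24 mice (4.00 to 6.52), and 8.01 in HH (4.94 to 15.9), 10.0 in HS (2.94 to 20.6), 11.0 in SH (9.20 to 14.8) and 9.37 in SS mice (4.42 to 14.05). The lowest SH library lay above the highest library of H24 and S24, while HH, HS and SS overlapped both 24 h groups. How many genes at large part in this way was not counted. The summed level of 6 hypothalamus markers had medians of 1.42 CPM in H24 and 1.21 in S24, and of 2.30 in HH, 3.76 in HS, 4.73 in SH and 2.89 in SS mice. Time, code set, the challenge injection and the drug-seeking test cannot be told apart here, and no statistical test was made.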
